A study of Homo sapiens with 15 samples.

Results

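The replication-dependent histone genes are the clustered genes that supply the 4 core histones and the linker histone H1 while DNA is copied. They were taken as the rows of a gene count table whose Ensembl identifier belongs to a protein-coding gene with the symbol H1-1 to H1-6, or with a symbol made of H2AC, H2BC, H3C or H4C and a number. Pseudogenes were left out. The rule found 70 of the 60670 genes, namely 6 H1, 17 H2A, 19 H2B, 13 H3 and 15 H4 genes. The HIST1 cluster on chromosome 6 holds 55 of them, chromosome 1 holds 13, H4C16 is on chromosome 12 and H2BC12L on chromosome 21. The values came from HT-1080, an established human fibrosarcoma line, with 5 groups and 3 libraries in each. The first group was of cycling cells in the vehicle DMSO, labelled 6 h. In all other groups a dominant negative mutant of the telomere protein TRF2 had been expressed for 6 days, which uncaps telomeres and makes the cells senescent, and the cells then received DMSO for 6 h, 1 uM GNF-7 for 6 h, DMSO for 24 h or 1 uM GNF-7 for 24 h. GNF-7 is a tyrosine kinase inhibitor, and the study's title links its action on senescent cells to the stress kinase GCN2. No cycling cells received GNF-7, so its effect was measured in senescent cells only. All groups came from 1 cell line in the same medium and at the same oxygen level, and the promoter that drives the mutant is not given in the sources used here. The labels call the libraries of a group biological replicates but do not say that they came from separate cultures, so p-values measure the spread between these libraries.

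In dividing cells, messages of these genes end in a short stem-loop instead of a poly(A) tail. The stem-loop binding protein SLBP and the U7 small nuclear RNP form that end during S phase, and the messages are degraded when replication stops. Many of the genes can also give a spliced or extended, polyadenylated message from a signal beyond the stem-loop, a form known from differentiated and non-dividing cells. Library preparation used a stranded mRNA kit, which captures RNA by its poly(A) tail. The levels below therefore describe polyadenylated forms, and stem-loop-ended messages were largely outside the measurement.

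The stem-loops of some members named below are shown as the end that a polyadenylated transcript lacks or runs past. Each line gives the sense strand, 5′ to 3′, from GENCODE 29 transcripts on GRCh38, and the capitals mark the paired arms of the stem.
H2AC6: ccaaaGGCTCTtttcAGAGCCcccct
H2AC25: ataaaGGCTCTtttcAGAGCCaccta
H2BC4: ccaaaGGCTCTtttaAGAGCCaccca
H2BC5: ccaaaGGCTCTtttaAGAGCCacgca
H2BC21: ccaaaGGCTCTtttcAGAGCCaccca
H3C6: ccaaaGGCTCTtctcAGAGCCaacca
H4C8: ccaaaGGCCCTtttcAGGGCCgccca
H4C14: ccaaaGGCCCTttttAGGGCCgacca
The H4C8 and H4C14 lines show another stem than the H2A, H2B and H3 lines, and the loops of H2BC4, H2BC5, H3C6 and H4C14 differ from that of H2AC6. The H2AC6 site is at chr6:26124664-26124689 on the plus strand and that of H2BC21 at chr1:149886183-149886208 on the minus strand, both in the annotated 3′ UTR. H2BC26 and H3C10 carry the same 26 bases as H2BC21.

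A 3′ UTR is annotated in GENCODE 29 for 36 of the 70 members, and a stem-loop was found in 31 of them. The other 34 members are annotated by their coding sequence alone, H1-2 and H2BC12 among them. In 23 members an annotated transcript runs at least 100 bases past the stem-loop. Those 23 gave 55.8% of all reads counted on members, and 17 of them passed the filter on low counts. Of the 34 coding-only members 6 passed. That set gave 33.8% of the member reads, with 20.8% on H2BC12 and 12.2% on H1-2. Spliced coding transcripts are annotated for 9 members. In 6 of these, namely H2AC6, H2BC4, H2BC5, H2BC11, H2BC15 and H2BC18, a spliced form leaves the stem-loop out.

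Libraries held 25991007 to 32323393 counts. Levels are CPM, the counts of a gene scaled to a common library total, after TMM scaling, which sets libraries to a common level over most genes. Mitochondrial genes took 3.75% to 5.01% of counts in cycling libraries and 11.2% to 12.4% in senescent DMSO libraries at 6 h. With GNF-7 at 6 h they took 13.2% to 15.3%. At 24 h they took 15.1% to 18.7% in DMSO and 22.6% to 24.1% with GNF-7. TERF2, whose reads can come from the cell's own gene and from the mutant, was at 58.2 ± 3.65 CPM (SD, n = 3) in cycling and 287.3 ± 8.17 CPM in senescent DMSO cells at 6 h. With GNF-7 at 6 h it was at 222.1 ± 8.59 CPM, and at 24 h at 220.0 ± 7.25 CPM in DMSO and 132.2 ± 5.38 CPM with GNF-7. Of 6 markers listed for the fibrosarcoma line, VIM, CD44, MMP14 and FN1 were high in every library, from 831.3 CPM up, while S100A4 and NT5E stayed at or below 3.10 and 0.747 CPM. Blood and endothelial lists summed to at most 0.994 and 3.14 CPM. The epithelial list summed to 744.4 to 760.2 CPM in cycling and 396.9 to 408.2 CPM in senescent DMSO libraries at 6 h. With GNF-7 at 6 h it was 349.0 to 365.9 CPM, and at 24 h 453.1 to 473.8 CPM in DMSO and 292.8 to 301.3 CPM with GNF-7. Nearly all of that was KRT8 and KRT18, while EPCAM and CDH1 stayed at or below 0.221 and 0.159 CPM. The part of these shifts in the results below was not tested.

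No read was counted on 14 members in any library: H1-5, H2AC7, H2AC16, H2BC1, H2BC10, H2BC17, H3C4, H3C7, H3C11, H3C12, H3C14, H3C15, H4C6 and H4C13. Of these, 9 have a sequence in which every 75-base window is unique among GENCODE 29 transcripts, and 4 overlap another gene on the same strand. H3C4, H3C14 and H3C15 have no unique window, so reads could not have been assigned to them alone. H3C4 is among the members that overlap another gene on the same strand. Over all members, 16 had fewer than 50% unique windows, and 4 of these were tested (H2BC12, H2AC13, H2AC15 and H4C14). The values of H2BC12, H2AC13 and H4C14 are uncertain in how reads were split between near-identical copies. H2AC15 has no unique window in a search that matched both strands. It lies within H2BC15 on the other strand, and its values are uncertain in how reads were split between these genes.

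Reads were concentrated on few members. H2BC12, H2AC6 and H1-2 together took 53.2% of the member reads of all libraries, and the 12 members with most reads took 93.3%. Per kilobase of annotated exon, H2BC12 was highest in every group, at 126 CPM per kilobase in cycling and 211 in senescent DMSO cells at 6 h. H1-2 followed with 34.0 and 79.9. H2AC6 was at 9.16 in cycling cells, below H2AC25 and H2BC5, and at 37.9 in senescent cells. The lengths of H2BC12 and H1-2 are coding lengths only, so any untranslated part makes their values per kilobase too high.

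The first comparison was that of senescent with cycling cells, both in DMSO and labelled 6 h. Polyadenylated histone RNA was higher in senescent cells. The summed level of all 70 members was 137.2, 142.6 and 138.1 CPM in the cycling libraries and 365.5, 364.5 and 360.7 CPM in the senescent ones. The groups did not overlap, and the senescent mean was 2.61-fold the cycling mean (log2 difference 1.39), with a two-sided exact permutation p of 0.1, the smallest that 3 against 3 libraries allow. All 5 classes stood higher, with no overlap. The H4 sum differed the most, at 3.38 against 24.7 CPM or 7.33-fold. The H1, H2A, H2B and H3 sums were 2.32-fold, 2.82-fold, 2.41-fold and 2.23-fold higher. Over the 20 comparisons of class sums, the smallest exact permutation p possible became 0.111 after Benjamini-Hochberg adjustment. In bulk RNA a change in the RNA per cell cannot be told apart from a change in the number of cells that make it.

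**Figure D1:**
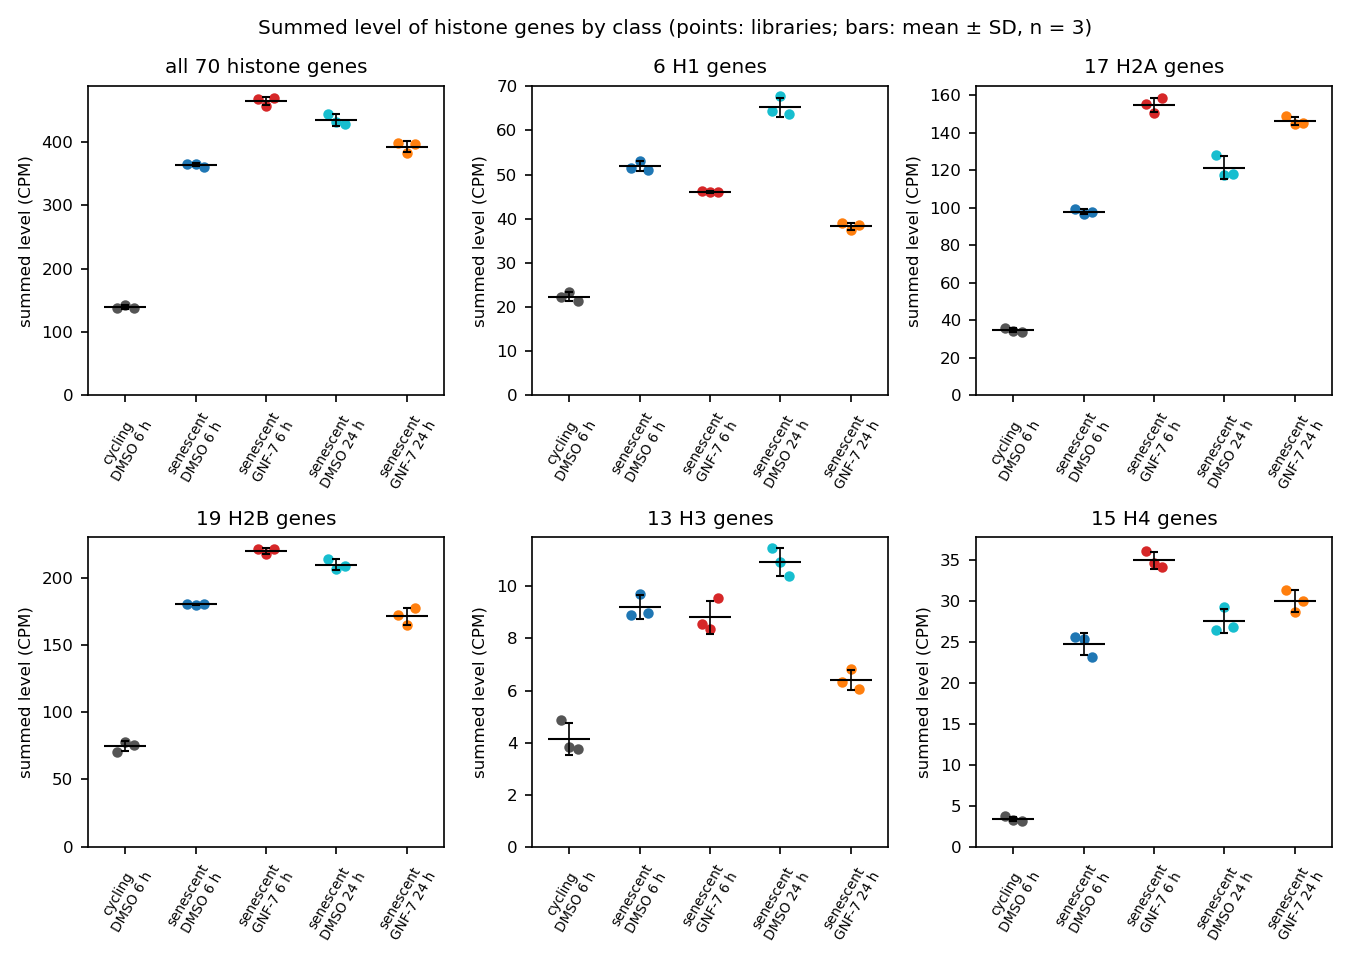
Summed level in CPM (vertical axes from 0) of all 70 histone genes and of each class in the 15 libraries. Points are libraries, bars are the mean ± SD of 3. In all 6 panels the cycling libraries lie below every senescent library, and the H1 and H3 sums are lowest among senescent groups after 24 h of GNF-7.

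Single members were tested with edgeR's quasi-likelihood test over all 18563 genes that passed its filter on low counts, and a gene counted as changed at a Benjamini-Hochberg adjusted p under 0.05. In cycling cells, 17 members reached the filter's level of 0.335 CPM in all 3 libraries, against 22 in senescent DMSO cells at 6 h. Among those 17, 16 rose and 1 (H2AC20) fell. Over all genes tested, 35.6% rose and 34.4% fell. Of the other 13 tested members, 10 reached that level in all libraries of a senescent group but not in all cycling ones, so that their direction is in part set by the filter. H3C2, H3C3 and H4C3 reached it in all libraries of no group. Of those 13, 7 rose and 6 did not pass the test. The remaining 40 members had too few counts for a test in any group. The median log2 fold change was 1.51 over the 30 tested members, or 1.33 with H3C6 at its lower bound, and 0.06 over all genes. Leaving mitochondrial genes out of the scaling again gave 23 tested members higher and 1 lower.

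**Figure D2:**
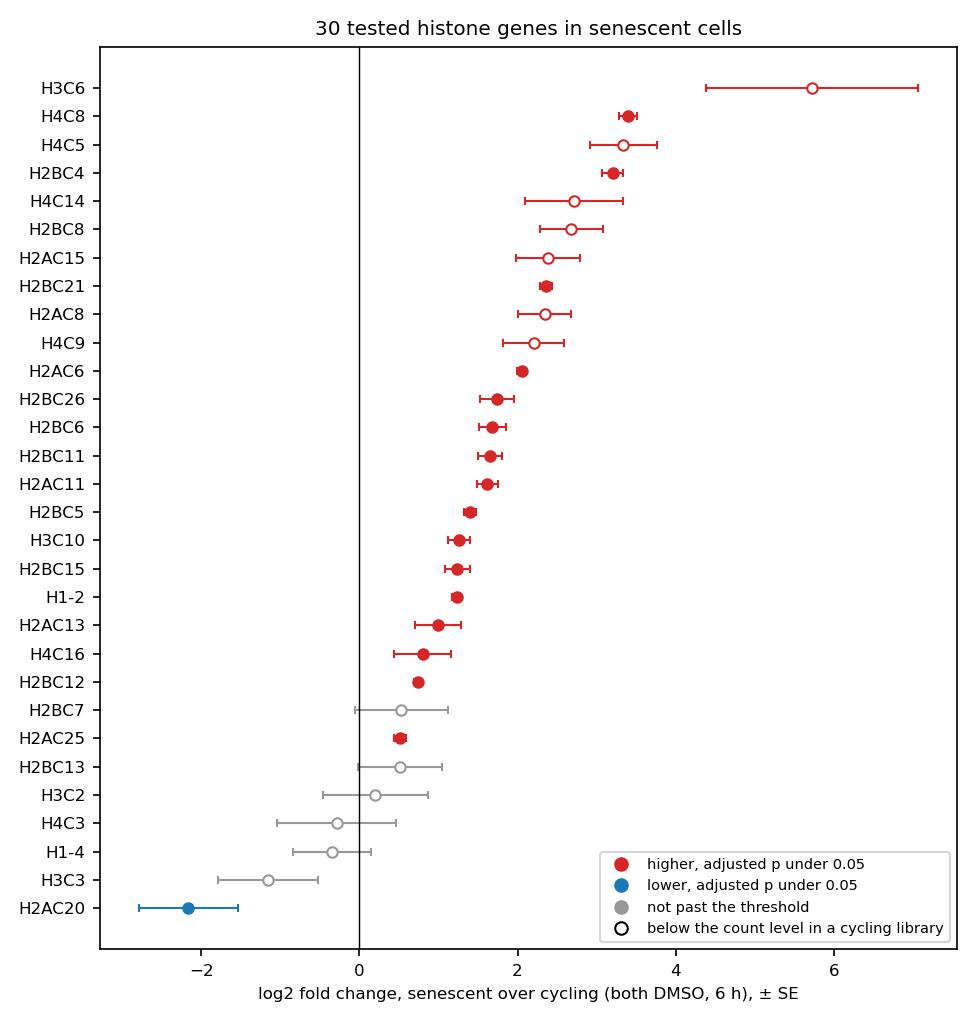
Log2 fold change of senescent over cycling cells (horizontal axis, ± SE) for the 30 tested histone genes. Filled points reached the count level in all cycling libraries, open points did not. Of the filled points 16 lie to the right of 0 and H2AC20 to the left at -2.16, and the value of H3C6, with no read in cycling cells, depends on the model's prior count.

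Among members with a mean of at least 1 CPM over all libraries, H4C8, H4C5, H2BC4 and H2BC8 had the largest rises. H4C8, an H4 gene, was at 2.29, 1.69 and 1.76 CPM in cycling and at 19.8, 21.2 and 19.0 CPM in senescent libraries. H2BC4, an H2B gene, was at 1.29, 1.55 and 1.60 CPM and at 13.5, 13.4 and 14.3 CPM. In both genes all senescent libraries were several times above all cycling ones. The edgeR log2 fold change was 3.40 ± 0.11 (SE) for H4C8 (adjusted p = 1.6e-36) and 3.20 ± 0.13 for H2BC4 (adjusted p = 2.2e-31). H4C5 and H2BC8 rose by 3.34 ± 0.42 and 2.68 ± 0.40 on the log2 scale, from levels of 0.134 and 0.190 CPM that were close to the limit of counting. Neither reached the count level in all cycling libraries, so that their direction is in part set by the filter. Without cycling replicate 3 the value of H4C5 was 4.61, and without cycling replicate 2 that of H2BC8 was 3.46.

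H2AC6 and H2BC21 combined large rises with high levels. H2AC6, an H2A gene with an annotated spliced transcript that skips the stem-loop, was at 15.7, 15.3 and 14.8 CPM in cycling and 65.3, 61.5 and 63.0 CPM in senescent libraries. H2BC21, an H2B gene of the HIST2 cluster on chromosome 1, was at 6.92, 7.44 and 6.76 CPM and at 36.0, 35.2 and 37.4 CPM. The groups lay far apart in both. The log2 fold changes were 2.05 ± 0.05 (edgeR adjusted p = 4.5e-41) for H2AC6 and 2.36 ± 0.07 (adjusted p = 2.0e-37) for H2BC21.

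Other abundant members had smaller log2 fold changes. H2BC12 was at 45.0, 49.3 and 49.95 CPM in cycling and 80.0, 81.6 and 79.6 CPM in senescent libraries, a log2 fold change of 0.74 ± 0.05. H1-2, a somatic linker histone gene, was at 21.5, 23.3 and 20.7 CPM and at 51.1, 52.5 and 50.3 CPM, or 1.23 ± 0.06. H2BC5 rose by 1.40 ± 0.08 from a mean of 10.1 to 26.6 CPM. In all of these genes the lowest senescent library lay above the highest cycling one. H3C10, the H3 gene with most reads, rose by 1.26 ± 0.14 from 3.38 ± 0.700 CPM (SD, n = 3) to 8.06 ± 0.216 CPM. H2AC25 had the smallest called rise, 0.52 ± 0.08, from 13.8 to 19.7 CPM. H2AC6, H2BC4, H2BC5, H2BC12, H2BC21 and H1-2 are members reported to make polyadenylated RNA in non-dividing cells, and all 6 rose, with a median of 1.73. That list was chosen with earlier results of these data known.

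H3C6 and H2AC20 stood at the ends of the range and were singled out after their values were seen. H3C6 had no read in the cycling libraries and stood at 0.232, 0.284 and 0.139 CPM in senescent ones. Against a floor of 3 counts per cycling library it was at least 2.03-fold higher. H2AC20, an H2A gene next to H2BC21, was at 0.925, 0.448 and 0.620 CPM in cycling and 0.0662, 0.126 and 0.243 CPM in senescent libraries. It fell by 2.16 on the log2 scale (SE 0.63, edgeR adjusted p = 0.0019), at a level of a few reads per library in senescent cells. It passed the filter only through the cycling group, where it was high.

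Neighbouring members that share a start region were set side by side. In RefSeq, 13 pairs of members are transcribed away from each other with their starts at most 1000 bases apart, and in 7 pairs both genes were tested. The pairs of H3C4 and of H2AC7 with H2BC7 rest on the same RefSeq starts and are a single start region. H2BC4 and H2AC6, with 245 bases between their starts, rose by 3.20 and 2.05 on the log2 scale. H2BC11 and H2AC11, with 247 bases between, rose by 1.65 and 1.62. H2BC8 and H2AC8 rose by 2.68 and 2.34, and H2AC15 and H2BC15 by 2.39 and 1.24. H2BC8, H2AC8 and H2AC15 did not reach the count level in all cycling libraries, so that their direction is in part set by the filter. H2BC21 and H2AC20 share 235 bases and were at 2.36 and -2.16, of which H2AC20 passed the filter only through the cycling group. H2AC25 and H2BC26, in the HIST3 cluster on chromosome 1, rose by 0.52 and 1.74. H2BC13 and H2AC13 were at 0.51 and 1.00, of which the first did not pass.

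The bases between the starts of 3 such pairs are shown because they lie between members named above. They are RefSeq sequence on GRCh38.p14, and capitals mark CCAAT boxes, the TATA box letters TATAAA, and the octamer ATTTGCAT, each on either strand, where motifs may overlap. The first lies at chr6:27132796-27133042 and is read toward H2BC11 (minus strand). The second lies at chr1:149886683-149886917 and is read toward H2BC21 (minus strand), and the third at chr1:228457874-228458102 and is read toward H2BC26 (plus strand).
H2BC11: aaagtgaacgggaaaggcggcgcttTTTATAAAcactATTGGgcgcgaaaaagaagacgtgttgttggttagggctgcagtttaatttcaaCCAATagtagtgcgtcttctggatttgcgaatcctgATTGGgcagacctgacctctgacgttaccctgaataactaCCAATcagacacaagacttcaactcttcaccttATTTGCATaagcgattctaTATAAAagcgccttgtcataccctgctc
H2BC21: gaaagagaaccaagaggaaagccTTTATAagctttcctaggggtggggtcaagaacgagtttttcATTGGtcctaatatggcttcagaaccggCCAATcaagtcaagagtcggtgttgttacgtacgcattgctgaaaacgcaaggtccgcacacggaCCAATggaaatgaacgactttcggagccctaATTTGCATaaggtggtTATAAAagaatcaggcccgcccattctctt
H2BC26: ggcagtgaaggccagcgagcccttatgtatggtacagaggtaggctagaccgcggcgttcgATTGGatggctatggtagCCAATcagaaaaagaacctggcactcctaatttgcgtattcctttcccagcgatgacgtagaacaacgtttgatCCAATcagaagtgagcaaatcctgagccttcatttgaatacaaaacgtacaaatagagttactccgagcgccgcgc
H2BC11 and H2BC21 carry TATAAA and the octamer ATTTGCAT near their start, while the H2BC26 stretch holds neither.

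Over windows from 250 bases before to 50 after the RefSeq start, on both strands, 64 members had a sequence. H3C4 and H2AC7 have the same start there, so their window counts for each. CCAAT, the site of the factor NF-Y, was in 54 of the 64 (84.4%) and in 34.61% of 35116 promoters. TATAAA was in 65.6% of the member windows and 11.53% of all. ATTTGCAT, the octamer bound by OCT1, was in 40.6% and 1.77%. It was found in 14 of 18 H2B and 11 of 16 H2A windows and in none of 13 H4 windows. AAACACA, an element of H1 promoters, was in 6 of 6 H1 windows and 14.1% of all member windows, against 5.64% of all promoters. The E2F letters TTTCCCGC were in 1 member window (1.6%, against 1.63%), and TTTGGCGC was in none, against 0.65%.

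**Figure D3:**
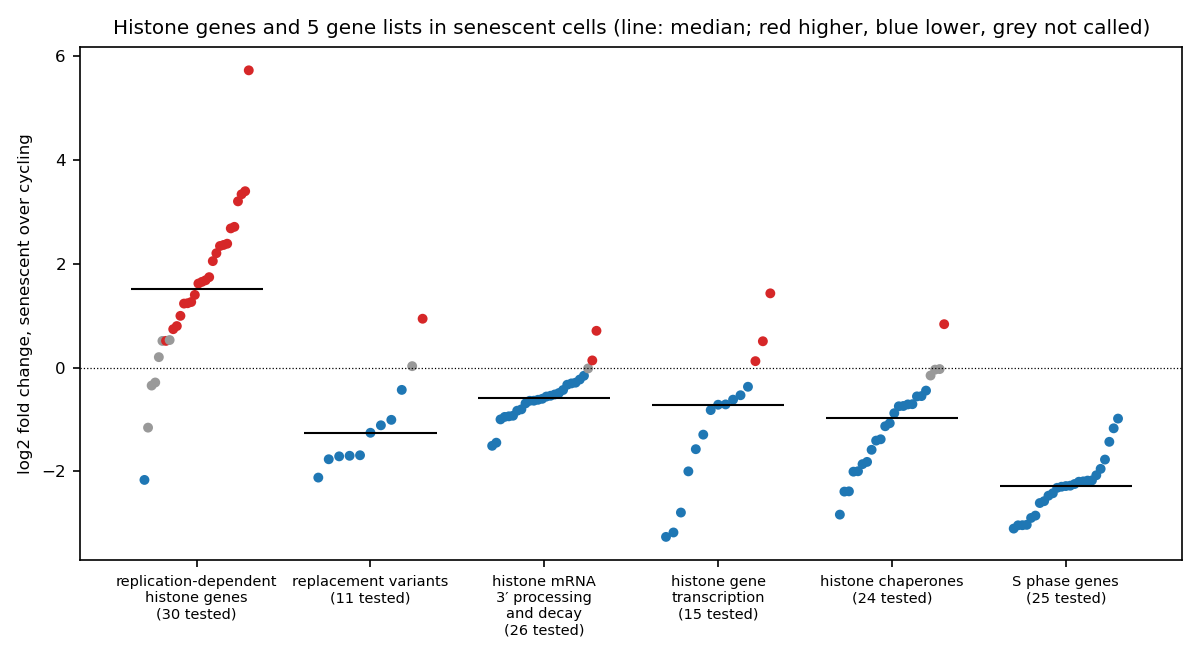
Log2 fold change of senescent over cycling cells (vertical axis) for the 30 tested replication-dependent histone genes and for 5 lists of related genes. Each point is a gene and each line a list's median, which is 1.51 for the histone genes and below 0 for the other 5 lists.

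Most genes that act with histones moved the other way. Of 25 S phase genes tested, such as MCM2 and RRM2, all 25 fell in senescent cells, with a median of -2.28. Over all genes tested, 34.4% fell and 35.6% rose. Of 26 genes for processing and decay of histone messages, 23 fell and 2 rose, with a median of -0.58. SLBP, which binds the stem-loop, fell from 119 ± 1.62 to 41.9 ± 3.08 CPM (SD, n = 3; log2 fold change -1.51 ± 0.05, edgeR adjusted p = 4.8e-36). ERI1, the nuclease that trims the stem-loop, fell by 1.45 ± 0.06, while TUT7, a uridyltransferase that marks histone messages for decay, rose by 0.71 ± 0.05.

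Of 15 genes of histone gene transcription, 12 fell and 3 rose. E2F1, an S phase transcription factor, fell by 2.79 ± 0.08, and CDKN1A, the inhibitor p21 of the cyclin-dependent kinases, rose by 1.43 ± 0.04. NPAT, the coactivator of histone genes, fell by 1.29 ± 0.08. Of 24 chaperones, 20 fell and 1 (UBN2) rose. NASP and the CAF-1 subunit gene CHAF1A fell by 2.00 ± 0.05 and 2.38 ± 0.06. Of 11 tested replacement variant genes, many made outside S phase with ordinary poly(A) tails, 9 fell and 1 (MACROH2A2) rose. H2AZ1 fell by 2.12 ± 0.04.

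The next comparison was that of GNF-7 with DMSO in senescent cells after 6 h. The summed member level was 467.4, 456.9 and 469.4 CPM with GNF-7, above all 3 DMSO libraries, at 1.28-fold (exact permutation p = 0.1, the smallest possible). The H2A sum was 154.7 CPM against 97.7 in DMSO and the H4 sum 35.0 against 24.7, while the H1 sum was 46.1 against 51.9. The H3 sums overlapped, at 0.958-fold with an exact permutation p of 0.4, also 0.4 after adjustment. Of the 30 tested members 16 rose and 1 (H1-2) fell, against 17.9% and 21.4% of all genes. Of the 22 that reached the count level in all DMSO libraries at 6 h, 14 rose, 1 fell and 7 did not pass. The median was 0.44 over the tested members and 0.01 over all genes.

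H2BC26, an H2B gene of the HIST3 cluster, had the largest rise among members of at least 1 CPM. It was at 2.65, 3.82 and 3.50 CPM in DMSO and 10.4, 11.1 and 8.21 CPM with GNF-7. Its log2 fold change was 1.57 ± 0.15 (edgeR adjusted p = 4.7e-13). H2AC25, its neighbour across 229 bases, rose by 0.58 ± 0.07 from 19.7 to 29.5 CPM. H2BC8 rose by 1.10 ± 0.27 and H2AC15 by 1.01 ± 0.28, from 1.24 and 1.07 CPM, and H2BC6 by 0.70 ± 0.14 from 4.84 to 7.86 CPM. These 3 lie in the HIST1 cluster.

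H2AC6 and H2BC21 rose again. H2AC6 reached 104.9, 103.9 and 108.2 CPM with GNF-7, 0.74 ± 0.04 above DMSO on the log2 scale (edgeR adjusted p = 6.3e-22). H2BC21 reached 58.4, 55.6 and 53.0 CPM, 0.62 ± 0.06 above. All GNF-7 libraries lay above all DMSO libraries for both genes. H2BC4 rose by 0.41 ± 0.09 and H4C8 by 0.46 ± 0.07. H4C5 rose by 0.65 ± 0.27 with an edgeR adjusted p of 0.049, a call that was lost under 9 of 23 alternative settings, namely with no filter and without DMSO replicate 2 or 3 or GNF-7 replicate 2 or 3 of the 6 h groups, or any DMSO replicate or GNF-7 replicate 3 of the 24 h groups.

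Other abundant members did not share the rise. H1-2 was at 45.0, 44.6 and 44.4 CPM with GNF-7, below all DMSO libraries, and fell by 0.20 on the log2 scale (SE 0.05, edgeR adjusted p = 0.0017). H2BC12, H2BC5 and H3C10 did not pass the test, at -0.05 ± 0.05, 0.12 ± 0.07 and -0.09 ± 0.12. H1-4, another linker histone gene, rose by 1.56 ± 0.45 from 0.417 to 1.25 CPM. It reached the count level in all libraries of the GNF-7 group at 6 h only. Its DMSO values at 6 h rest on 9, 17 and 12 reads.

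**Figure D4:**
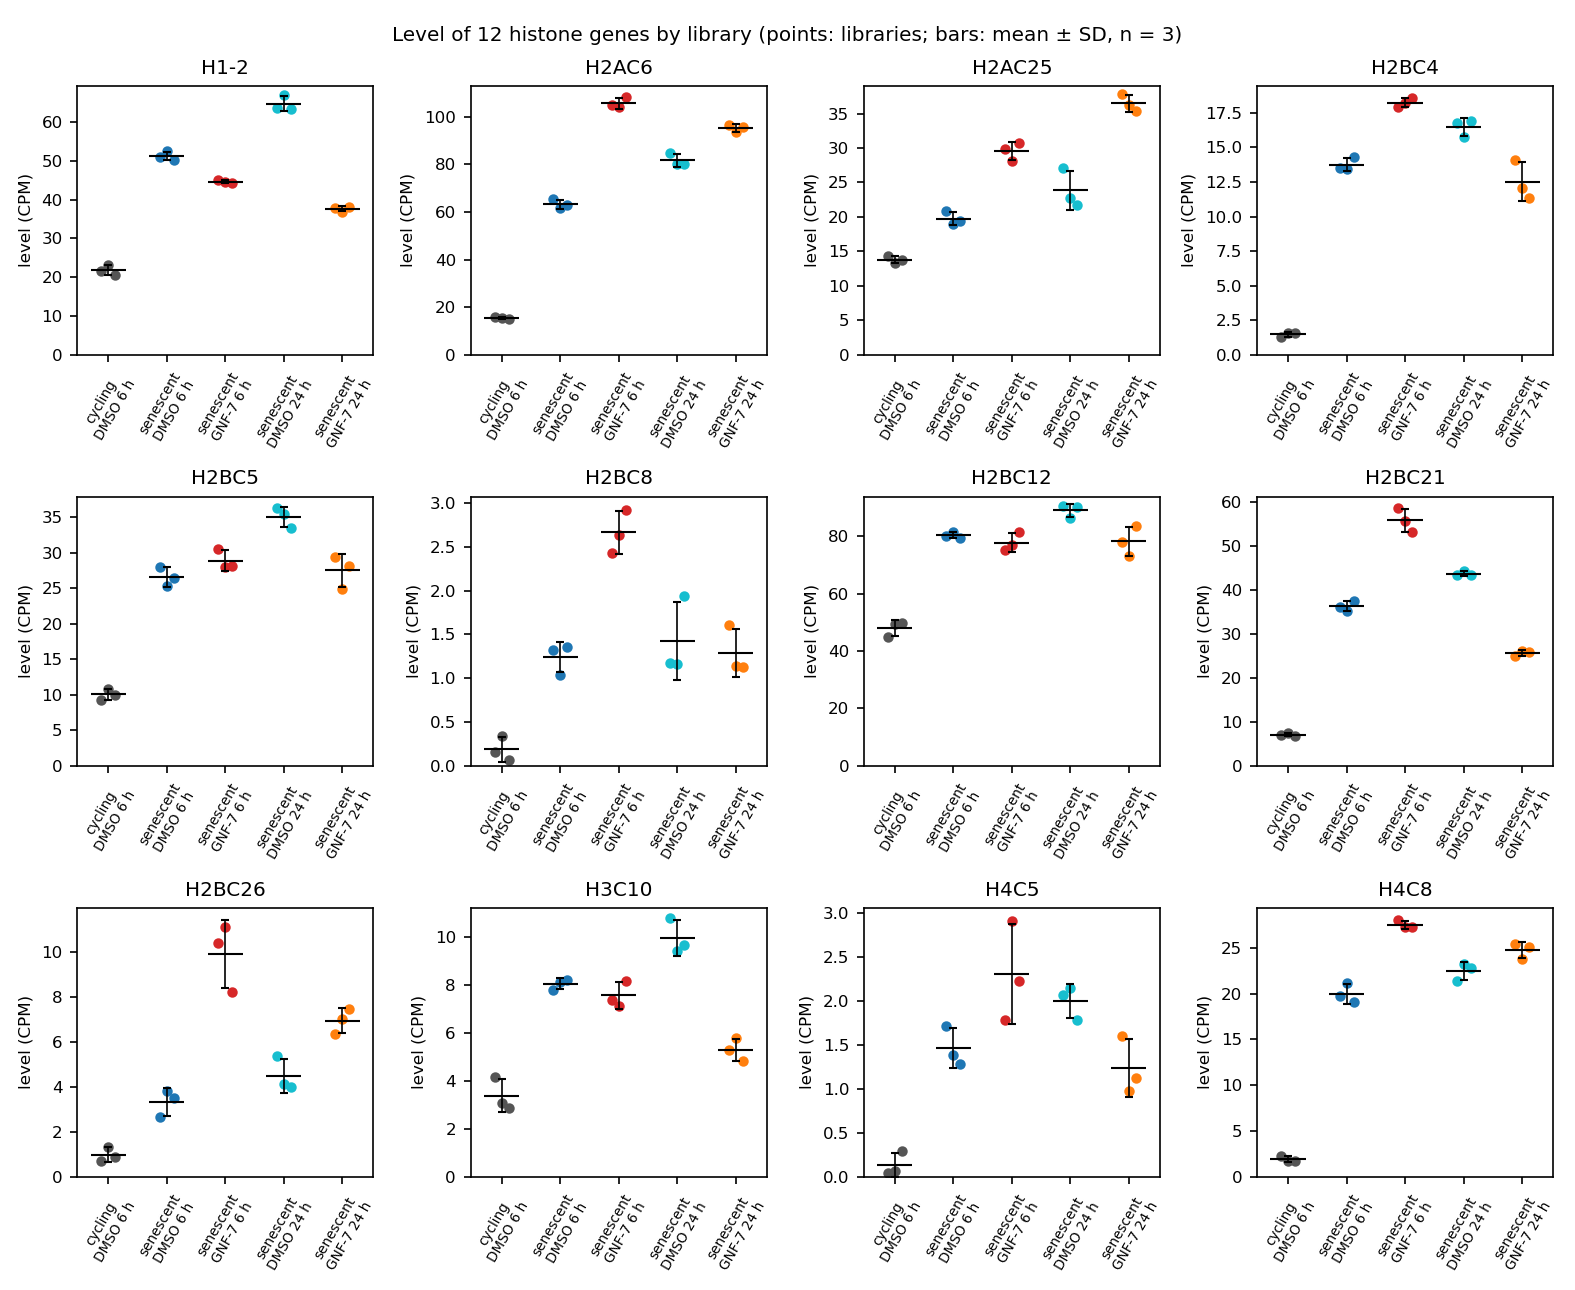
Level in CPM (vertical axes from 0) of 12 histone genes in the 15 libraries. Points are libraries, bars are the mean ± SD of 3. H2BC21 is highest after 6 h of GNF-7 and falls below both senescent DMSO groups after 24 h. H2AC25 is highest after 24 h of GNF-7, and H1-2 is lower with GNF-7 than with DMSO in senescent cells at both times.

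After 24 h of GNF-7, members had moved in both directions. The summed level was 434.5 ± 8.92 CPM (SD, n = 3) in DMSO and 392.2 ± 8.61 CPM with GNF-7, or 0.903-fold, with no overlap (exact permutation p = 0.1, the smallest possible). Of the 30 tested members 4 rose (H2AC6, H2AC25, H2BC26 and H3C6) and 8 fell (H1-2, H2AC13, H2BC4, H2BC5, H2BC12, H2BC21, H3C10 and H4C5). Over all genes 29.3% rose and 29.7% fell. The median was -0.12 over the members and 0.04 over all genes. The H1 and H3 sums, mostly reads of H1-2 and H3C10, were at 0.588-fold and 0.585-fold of DMSO. The H2B sum was at 0.817-fold, while the H2A sum was at 1.21-fold. The H4 sum overlapped between groups, at 1.09-fold with an exact permutation p of 0.2, or 0.21 after adjustment.

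H2BC21 and H1-2 combined large falls with high levels. H2BC21 was at 43.4, 44.2 and 43.2 CPM in DMSO and 24.8, 26.1 and 25.9 CPM with GNF-7, and fell by 0.77 on the log2 scale (SE 0.06, edgeR adjusted p = 1.8e-17). H1-2 was at 63.7, 67.0 and 63.5 CPM and at 37.9, 36.9 and 38.1 CPM, and fell by 0.78 (SE 0.05, adjusted p = 3.7e-20). In both, every GNF-7 library lay below every DMSO library. H3C10 fell by 0.91 (SE 0.13) from 9.97 to 5.30 CPM, H2BC4 by 0.40 (SE 0.09), H2BC5 by 0.35 (SE 0.07) and H2BC12 by 0.19 (SE 0.05). The falls of H2AC13, by 0.78 (SE 0.29), and H4C5, by 0.70 (SE 0.28), depended on single libraries. That of H2AC13 lost its call without DMSO replicate 2 or GNF-7 replicate 1 or 2 of the 24 h groups, and that of H4C5 without DMSO replicate 1 or 2 or GNF-7 replicate 2 or 3.

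H2AC25 was at 27.1, 22.7 and 21.8 CPM in DMSO and 37.8, 36.2 and 35.4 CPM with GNF-7, a rise of 0.61 ± 0.07. H2BC26 rose by 0.62 ± 0.15, from 4.49 to 6.94 CPM. This pair of the HIST3 cluster was higher with GNF-7 at both times. H2AC6 rose by 0.22 ± 0.04, from 81.6 to 95.2 CPM. H3C6 stood at 0.211 CPM in DMSO and 0.570 CPM with GNF-7 (1.42 ± 0.56, edgeR adjusted p = 0.025). The GNF-7 group at 6 h was the only one in which all its libraries reached the count level, so that its direction against DMSO is in part set by the filter. Its call was lost with no filter, and without DMSO replicate 1 or 3 or GNF-7 replicate 2 or 3 of the 24 h groups. H4C8 was at 0.14 ± 0.07, which did not pass.

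The effects of GNF-7 after 6 h and after 24 h share no library, and their difference was tested as an interaction. In 13 of the 30 tested members the effect was lower at 24 h than at 6 h, against 18.0% of all genes. It was higher in 0, against 12.8% of all genes, and edgeR gave 0 also at an unadjusted p under 0.05, as did DESeq2 and limma after adjustment. The median difference was -0.56 over the members. H2BC21 had the largest difference among the 13, with -1.39 ± 0.08 on the log2 scale (edgeR adjusted p = 1.2e-21), from a rise at 6 h to a fall at 24 h. H2BC4 also passed in opposite directions at the different times, with a difference of -0.81 ± 0.13. H2BC26, H2AC6, H1-2 and H3C10 differed by -0.95 ± 0.22, -0.52 ± 0.06, -0.58 ± 0.08 and -0.82 ± 0.18. H2AC25 and H2BC12, at 0.03 ± 0.10 and -0.14 ± 0.07, did not pass. Each difference also holds the change of the DMSO reference between times. H2BC5 rose by 0.40 in DMSO from 6 h to 24 h. With GNF-7 it was at 30.6, 27.9 and 28.1 CPM at 6 h and 29.5, 25.0 and 28.2 CPM at 24 h. H2BC21 rose by 0.27 in DMSO. With GNF-7 it went from 58.4, 55.6 and 53.0 CPM to 24.8, 26.1 and 25.9 CPM. Of the 25 S phase genes 23 also had a lower effect at 24 h.

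**Figure D5:**
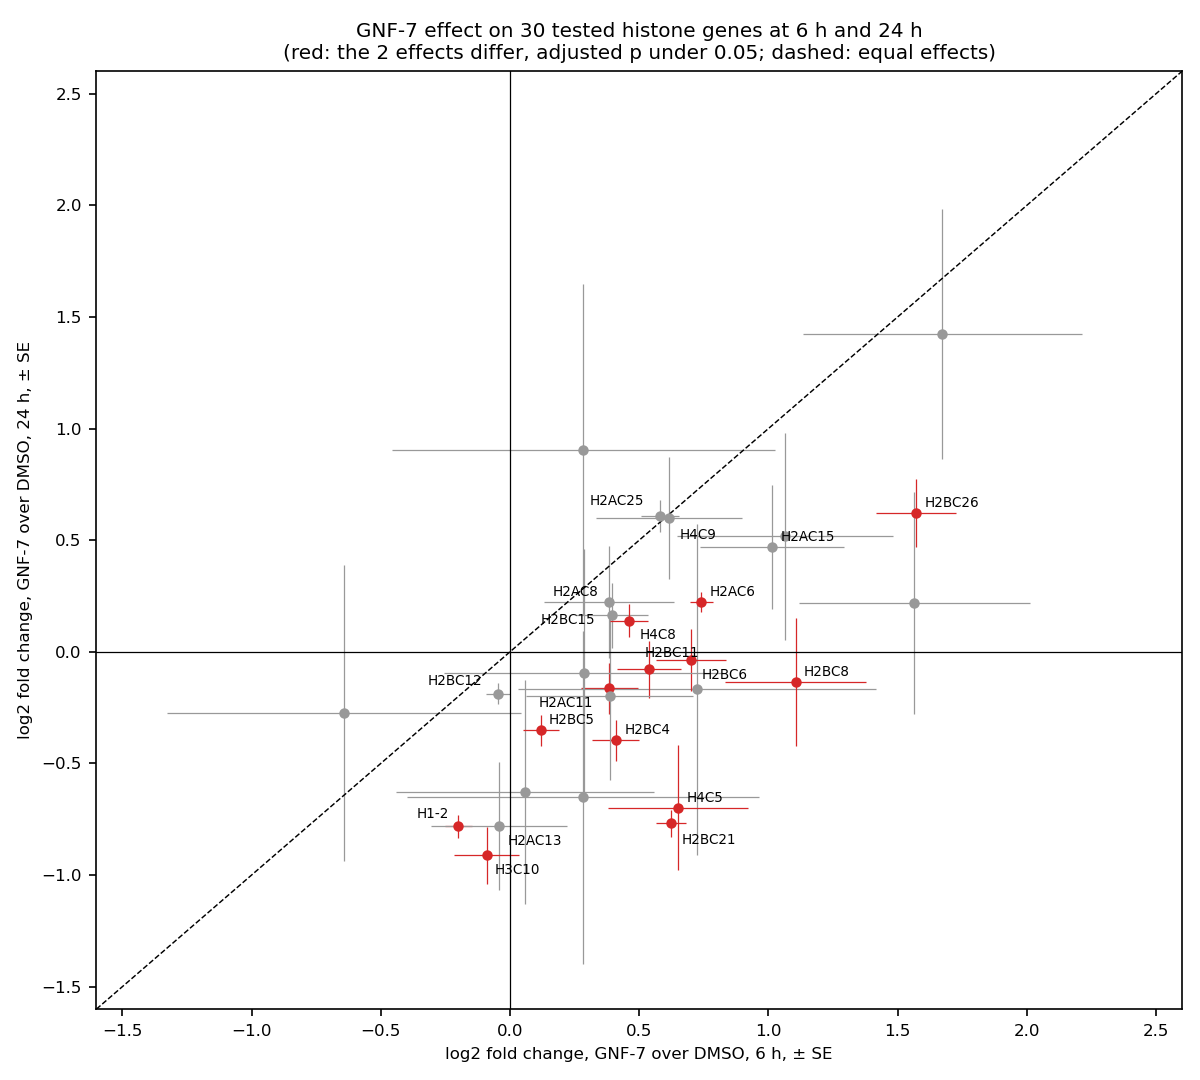
Log2 fold change of GNF-7 over DMSO after 6 h (horizontal axis) and 24 h (vertical axis), each ± SE, for the 30 tested histone genes; genes of at least 1 CPM are named. The 13 red points, whose effects differ between times, all lie below the dashed line of equal effects, and H2AC25 lies next to it.

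Regulators of histone messages mostly fell or did not pass the test with GNF-7. Of the 26 genes for processing and decay 12 fell at 6 h and 17 at 24 h, with medians of -0.12 and -0.15, and the others did not pass. Over all genes tested, 21.4% fell and 17.9% rose at 6 h, and 29.7% fell and 29.3% rose at 24 h. SLBP fell by 0.17 (SE 0.05) at 6 h and by 0.15 (SE 0.05) at 24 h. CDK2, which drives histone gene transcription through NPAT, fell by 0.45 (SE 0.05) and 1.13 (SE 0.06). HINFP, the factor of H4 promoters, rose by 0.35 ± 0.08 and 0.52 ± 0.08. Of the S phase genes 13 fell and 2 rose at 6 h, and 23 fell at 24 h.

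The last comparison was between the senescent DMSO groups at 24 h and 6 h. It shares its 6 h libraries with the comparisons at 6 h above, and its 24 h libraries are the reference of the GNF-7 comparison at 24 h. The summed level was 434.5 ± 8.92 CPM at 24 h against 363.6 ± 2.54 CPM at 6 h, 1.20-fold with no overlap (exact permutation p = 0.1, the smallest possible). Of the 30 tested members 7 rose (H1-2, H2AC6, H2AC25, H2BC4, H2BC5, H2BC12 and H2BC21), against 9.26% of all genes. By edgeR 0 fell, also at an unadjusted p under 0.05, as did 0 with DESeq2 and limma, against 9.29% of all genes. H2BC5 rose by 0.40 ± 0.07, H2AC6 by 0.37 ± 0.05, H1-2 by 0.34 ± 0.05 and H2BC21 by 0.27 ± 0.06. With libraries scaled by their total counts instead of TMM, 4 members rose, and the share of rises among all called genes went from 49.9% to 12.5%. The rises of H2BC4, H2BC12 and H2AC25 did not pass with that scaling, or without DMSO replicate 1 of the 24 h group. Those of H2BC4 and H2BC12 also did not pass with no filter or without DMSO replicate 1 or 3 of the 6 h group or replicate 3 of the 24 h group, and that of H2BC4 not without replicate 2 of the 6 h group.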

How the data were processed

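RNA of 15 HT-1080 libraries was analysed from 1 table of raw read counts per Ensembl gene, deposited by the authors without normalization. Per the submitters' processing notes, bcl2fastq 2.20.0.422, STAR 2.7.9a, featureCounts 1.5.1 and GRCh38 were used. The annotation release, the strand setting and the treatment of reads with several matches are not given in the sources used here, so values of overlapping genes and near-identical copies are uncertain. Of 60673 lines, 3 that held a broken entry of ANK2 were left out. All columns matched a library. Gene names came from a table of Ensembl identifiers, and 2 members were matched by older GENCODE 29 names. Members, lists and tests were chosen with earlier results of these data known.

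Counts were tested with edgeR 4.0.16 (R 4.3.3): filterByExpr with a minimum count of 10, TMM scaling, robust quasi-likelihood fits of all 15 libraries with a term per group, and Benjamini-Hochberg adjustment over 18563 genes at 0.05. Summed levels of all members were compared by two-sided exact permutation tests. A group with no reads was given a floor of 3 counts per library, which covers counting error only. The code was tested on simulated counts. Named members were those reported to make polyadenylated RNA in non-dividing cells, the 6 largest called rises and falls per comparison at a mean of at least 1 CPM, and the member of most reads in each class. For the other lists, named genes were the 3 with the smallest p per comparison, and further ones (ERI1, TUT7, NPAT, HINFP, SLBP, UBN2, MACROH2A2 and members below 1 CPM) were chosen after their values were seen. Alternatives were sums over tested members only, RLE factors, total counts, scaling without mitochondrial genes, testing with no filter or only at a mean of 5 CPM or more, DESeq2 1.42.0, limma voom 3.58.1, only the groups compared, a replicate block and leaving out each library. Stem-loops were searched in GENCODE 29 transcripts as a 6-base stem from GG to CC around a 4-base loop, within 150 bases after the stop codon. No pair of libraries within a group differed by less than sampling noise.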

Additional observations from a re-analysis of the deposited data

Results flagged for a closer look

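The effect of GNF-7 on 13 members differed between 24 h and 6 h, by the test of the difference itself (edgeR adjusted p under 0.05, 3 libraries in each of the 4 groups). The differences, as the log2 effect at 24 h minus that at 6 h, were -1.39 for H2BC21, -1.35 for H4C5, -1.24 for H2BC8, -0.95 for H2BC26, -0.82 for H3C10, -0.81 for H2BC4 and -0.74 for H2BC6. They were -0.62 for H2BC11, -0.58 for H1-2, -0.55 for H2AC11, -0.52 for H2AC6, -0.47 for H2BC5 and -0.32 for H4C8. The difference of H2BC8 did not pass without DMSO replicate 3 of the 24 h group, where it was -0.97 (edgeR adjusted p = 0.084, over its alternatives 0.0058 to 0.084). Changes between the DMSO groups are part of these differences, and 7 of the 30 tested members rose in DMSO from 6 h to 24 h. The share of mitochondrial counts differed between the 24 h and 6 h groups, and its part was not tested.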

How the results depend on the processing

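The counts of members called kept within 1.5 times of the values above under the alternatives, with these exceptions. With a filter at a mean of 5 CPM, which left 14 members to test, 14 rose and 0 fell in senescent against cycling cells, and 5 fell after 24 h of GNF-7. In senescent against cycling cells 2 members fell with limma voom and 2 without senescent DMSO 6 h replicate 2, and the range was 1 to 2 over leaving out each library. Between the DMSO groups at 24 h and 6 h, 4 members rose with total counts, and 4 to 8 over leaving out each library. With total counts the median over all genes was 0.19 in the senescence comparison (0.06 with TMM) and -0.10 between the DMSO groups (0.01 with TMM), and the log2 difference of the summed level was 1.52 and 0.15. At 6 h of GNF-7 that difference was 0.34 to 0.38 over leaving out each library. H2BC12 turned from -0.05 to 0.0068 at 6 h with the filter at 5 CPM and passed in neither. Its fall at 24 h did not pass with that filter (-0.09). The causes were not tested. With the replicate number as a block, the senescence comparison gave 22 members higher and 1 lower, and 8 were higher between the DMSO groups. The other counts were the same as without it. Libraries with the same number correlated at -0.03 to 0.06 in their deviations, so the numbers do not pair them. Reads on members at or below the filter's level are too few to show changes in 40 members.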
